A study of Oryza sativa with 8 samples.

Results

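The strongest falls in messenger RNA level that both rice genotypes shared after 1 day under water comprised 83 of the 57258 probe sets of an Affymetrix rice array that are not controls. A probe set is a group of short probes that together measure one transcript. It was a member when its mean log2 level was at least 5 lower in submerged than in non-submerged plants in both genotypes, which is a fall of at least 32-fold, and when the 2 submerged means lay less than 1.5 apart. In all, 91 probe sets fell that far in both genotypes. Of these, 6 were dropped because the submerged means lay 1.5 or more apart, and 2 more were left out by name. The members were thus chosen by the measured levels themselves, the submergence contrast in each genotype and the submerged means, so the falls and the likeness of the submerged levels are given as descriptions without a test.

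The arrays measured aerial tissue of rice grown in soil in a greenhouse, 25 plants to a pot. M202(Sub1) is the M202 background with an introgressed region that carries the submergence tolerance gene Sub1A, and M202 lacks Sub1A. The 4 groups, of 2 arrays each, were M202(Sub1) submerged, M202(Sub1) non-submerged, M202 submerged and M202 non-submerged. Plants were 14 days old when submergence began, and submerged plants stayed fully covered for 24 h by deionized water standing at 90 cm. All groups share the M202 background and 14 days of growth in air. Non-submerged plants are labelled day 0 and submerged plants day 1, so 1 day of age cannot be told apart from submergence, and the sources used here do not give the hour of harvest of the non-submerged plants. Only 1 line stands for each genotype.

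Water around a leaf slows the entry of oxygen and carbon dioxide, dims the light and traps ethylene, and rice then turns to fermentation and draws on stored carbohydrate. SUB1A is an ethylene response factor that restrains shoot elongation and the use of reserves during a flood. Plants under water also lose the pull of transpiration and break down abscisic acid (ABA), the hormone that closes stomata and switches on genes of the drought response.

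In M202(Sub1) the falls of the members ran from 10.07 to 5.06 on the log2 scale, with a median change of -5.87, a 58.7-fold lower level. In M202 they ran from 10.1 to 5.01, again with a median change of -5.87, or 58.5-fold. Over all 34355 probe sets tested, the median change was 0.0 in each genotype. Falls of 5 or more were rare in both genotypes: they met 0.251% of all probe sets in M202(Sub1) and 0.203% in M202. The probe sets that fell that far in both genotypes were 63.2% of the 144 in M202(Sub1) and 78.4% of the 116 in M202. A fall this deep needs a high starting level, and 14142 probe sets had both non-submerged means at least 5 above the lowest deposited value. Of those, 0.587% were members. The same rule turned upward, a rise of at least 5 in both genotypes from non-submerged means within 1.5, found 215 probe sets, against 85 for falls before the 2 were left out by name. These counts do not compare like with like, since a rise can start at the lowest deposited value and a fall cannot. How many probe sets had room to rise by 5 was not counted.

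**Figure D1:**
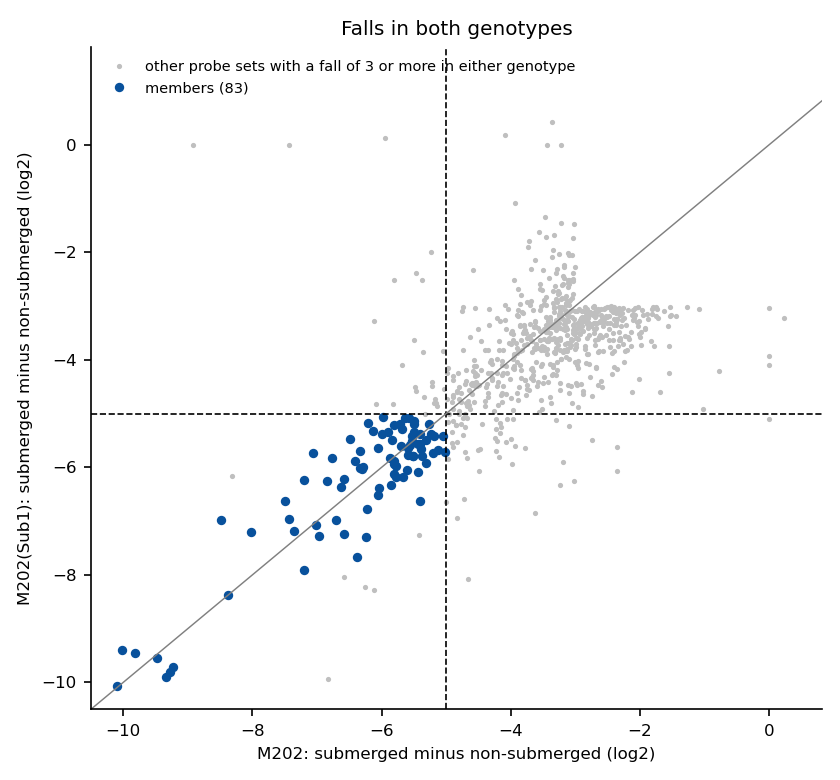
Change on submergence (submerged minus non-submerged group mean, log2) in M202 on the x axis and in M202(Sub1) on the y axis, for probe sets that fell by 3 or more in either genotype; blue points are the 83 members, dashed lines mark a fall of 5 and the diagonal marks equal falls. The members follow the diagonal, and 7 of them lie apart at falls of 9 or more in both genotypes.

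The falls were not spread evenly. By the smaller of its 2 falls, a member fell by 9 or more in 7 cases, by 8 to 9 in 1 case, by 7 to 8 in 4 cases, by 6 to 7 in 17 cases and by 5 to 6 in 54 cases. The threshold of 5 therefore runs through a dense region. Just inside it stood OsAffx.12954.1.S1_at with a smaller fall of 5.01, OsAffx.28017.1.S1_at with 5.04 and Os.37215.1.S1_at (LOC4344149) with 5.06. Just outside stood Os.15092.1.S1_at (LOC4347418), whose changes were -6.65 in M202(Sub1) and -5.0 in M202, just short of the threshold. Next came Os.52940.1.S1_at (LOC4351521) with changes of -5.0 and -5.33 and Os.45887.1.S1_at (LOC4327182) with -5.16 and -4.98, each in M202(Sub1) and M202 in that order.

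On every member the 4 submerged arrays lay below the 4 non-submerged arrays. Over all probe sets 12.8% were ordered this way, and the rule fixed the order for the members. The smallest distance between a member's highest submerged and lowest non-submerged array was 3.67. Group means in M202(Sub1) ran from 2.22 to 8.09 in submerged plants, with a median of 3.29, and from 7.61 to 14.06 in non-submerged plants, with a median of 9.61. In M202 they ran from 2.22 to 8.76 in submerged plants, with a median of 3.49, and from 7.51 to 14.19 in non-submerged plants, with a median of 9.71.

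The deposited log2 values stop at a common floor of 2.22, where roughly as many probe sets lie as above it: 49.8% to 50.5% of an array was within 0.1 of it. Submerged means came within 0.1 of that floor for 8 members in M202(Sub1), for 11 in M202 and for 6 in both. For these the fall is a lower bound. In all, 30 members had means below 3 in both submerged groups, and since no detection calls were used, a fold that ends below 3 is given as "at least". A further limit was visible in repeated values: in 9 members both arrays of a submerged group stood at the probe set's own lowest value, below 3, to within 0.005. Repeats above 3, and repeats below 3 that were not the probe set's lowest value, were not counted but occurred. Both submerged M202(Sub1) arrays read 2.74 for Os.27628.2.S1_a_at, 2.83 for Os.26879.1.S1_at, 3.51 for Os.10305.1.S1_at and 5.05 for OsAffx.28714.1.S1_x_at. Replicate 1 of both submerged groups read 3.53 for Os.8118.1.S1_at. Falls that end at such values may be lower bounds too. At the other end, 10 members kept a level of 5 or more in both submerged genotypes. Their lowest group is therefore well clear of the floor. Arrays of the same group correlated at 0.9985 to 0.9989 over all probe sets. Because whole aerial tissue was measured, a loss of the cells that hold a transcript and less of it per cell cannot be told apart. A probe set was called when limma's adjusted p was below 0.05. Over all tested probe sets 21.2% were lower and 27.7% higher in M202(Sub1), and 20.0% were lower and 22.9% higher in M202. Of the 13 green leaf marker probe sets tested, 1 was higher and 6 were lower in each genotype. Their median change was -0.27 in M202(Sub1) and -0.24 in M202. Their summed level on the log2 scale was 18.3 and 18.3 in submerged and non-submerged M202(Sub1), and 18.2 and 18.3 in submerged and non-submerged M202, a sum set by probe sets near the highest deposited value of 16.93, where a change may not show. Lower on the scale, the FBPase probe set Os.11756.1.S1_at, a gene of sugar synthesis in green leaves, changed by -1.57 in M202(Sub1) and by -1.08 in M202. Of 4 tested root markers, 4 were lower in M202(Sub1) and 3 in M202, with summed levels of 10.6 and 11.7 in submerged and non-submerged M202(Sub1) and of 11.4 and 12.2 in submerged and non-submerged M202, and the root marker HKT1.5 stood at the floor throughout. Of 13 vascular markers, 2 were higher and 7 lower in M202(Sub1), and 4 were higher and 7 lower in M202, with summed levels of 14.4 and 14.5 in submerged and non-submerged M202(Sub1), and of 14.4 and 14.4 in submerged and non-submerged M202. Of 7 epidermis markers 3 were higher and 1 was lower in M202(Sub1), and 2 were higher and 1 was lower in M202. None of 5 markers of dividing cells was called in either genotype. The summed level of their list was low, at 6.27 and 6.56 in submerged and non-submerged M202(Sub1). In submerged and non-submerged M202 it was 6.41 and 6.54, and a fall may not show at such levels. The part of tissue make-up in the falls was not tested.

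**Figure D2:**
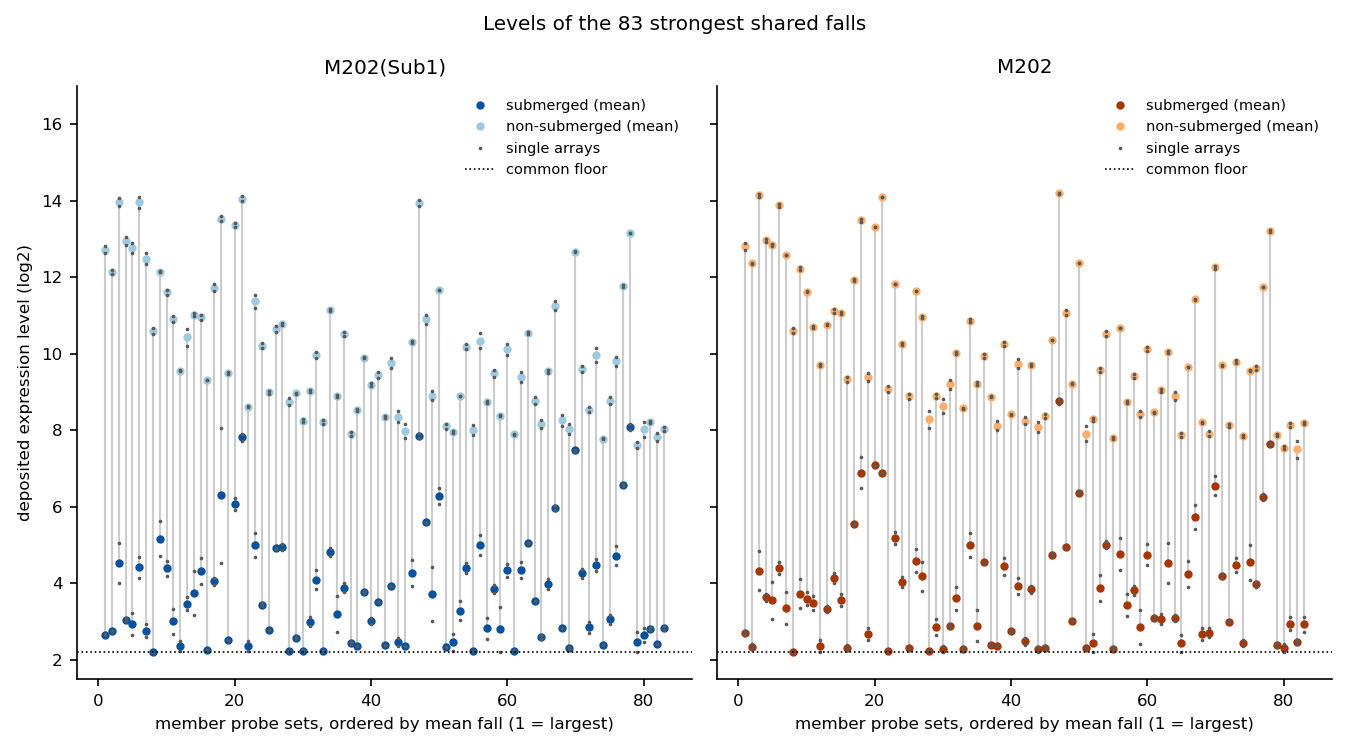
Deposited log2 level of each of the 83 members, ordered by mean fall from left to right, with M202(Sub1) in the left panel and M202 in the right; dark points are submerged means, light points non-submerged means, small points the single arrays and the dotted line the common floor of 2.22. Submerged means lie between 2.22 and 8.76 and non-submerged means between 7.51 and 14.19, and the single arrays of the non-submerged groups sit closer to their means.

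Of the 83 members, 50 were paired with exactly 1 gene, and these were 50 different genes. That share, 60.2%, compares with 39.2% over all probe sets. The other 33 members had no single gene in the annotation used here and are given by their probe set names. Only 9 of the 50 genes carry a name beside a LOC number. They cover hormone and stress signalling, water transport, protein folding, a cytochrome P450 and an APR-like protein, and are described in that order.

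The deepest fall of a named gene was that of CRSH2 (LOC4337890, chromosome 5, probe set Os.16903.1.A1_at). CRSH2 is a calcium-dependent RelA/SpoT homologue, a chloroplast enzyme that makes the alarmone ppGpp, which in plastids, as in bacteria, damps transcription and translation. Its level was 2.61 and 2.93 in submerged M202(Sub1), against 12.62 and 12.34 in non-submerged M202(Sub1). In M202 it was 2.93 and 3.77 in submerged plants, against 12.57 and 12.60 in non-submerged plants. All submerged arrays thus sat near the bottom of the scale and all non-submerged arrays well up it. The change was -9.71 ± 0.30 (SE of the limma fit, 2 arrays per group) in M202(Sub1), or at least 840-fold, and -9.23 ± 0.30 in M202, or 602-fold. The reading of 2.93 was the same on replicate 2 of submerged M202(Sub1) and replicate 1 of submerged M202. The fall in M202 may thus be a lower bound too. No other tested probe set of the family moved as far. RSH2 changed by -1.53 in M202(Sub1) and by -1.26 in M202, and RSH3 by 0.44 and by 0.72. CRSH1 changed by -0.19 in M202(Sub1), which missed the limma threshold, and by 0.40 in M202. CRSH3, the next gene after CRSH2 in the gene order, stood at 2.27 in every group. Of 6 tested probe sets of the family, 1 was higher and 2 were lower in M202(Sub1), while in M202 2 were higher and 3 were lower (limma adjusted p below 0.05).

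CKX4 (LOC4326515, chromosome 1, Os.50470.1.S1_at) encodes a cytokinin oxidase, an enzyme that breaks down the growth hormone cytokinin. Its level was 2.60 and 2.56 in submerged M202(Sub1), against 8.99 and 8.96 in non-submerged M202(Sub1). The M202 arrays read 2.66 and 3.07 in submerged plants, against 8.96 and 8.85 in non-submerged plants. The 2 genotypes were nearly alike in both conditions, with changes of -6.39 ± 0.14 in M202(Sub1) and -6.04 ± 0.14 in M202. Of the 5 cytokinin oxidase probe sets tested, 1 was higher and 2 were lower in M202(Sub1), and 2 were lower in M202. The other that was lower in both was CKX3, with changes of -2.67 in M202(Sub1) and -2.88 in M202. CKX5 was higher in M202(Sub1) by 2.59, and its change of 0.44 in M202 missed the threshold.

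ABIL1 (LOC4324201, chromosome 1, Os.5367.1.S1_at), also listed as PP2C06, is a clade A protein phosphatase 2C, a class of enzymes that holds ABA signalling off until the ABA receptors bind it, and whose genes ABA itself induces. Its level was 4.11 and 3.85 in submerged M202(Sub1), against 9.51 and 9.59 in non-submerged M202(Sub1). For M202 the levels were 4.59 and 3.90 in submerged plants, against 9.65 and 9.67 in non-submerged plants. The non-submerged levels of the genotypes lay within about 0.2 of each other. The change was -5.57 ± 0.24 in M202(Sub1) and -5.41 ± 0.24 in M202. Of 6 tested probe sets of the clade, 4 were lower and 1 was higher in M202(Sub1), and 5 were lower in M202, with median changes of -2.39 in M202(Sub1) and -3.6 in M202. PP2C09 changed by -4.77 in M202(Sub1) and by -4.40 in M202. PP2C08 changed by -3.81 and by -4.40. PP2C51 was the exception, higher by 1.93 in M202(Sub1) and at 0.00 in M202.

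Hox22 (LOC4336542, chromosome 4, Os.12134.1.S1_at) encodes a homeodomain leucine zipper transcription factor of class I, a class known for responses to drought and ABA. Its level was 4.97 and 4.49 in submerged M202(Sub1), against 9.92 and 9.69 in non-submerged M202(Sub1). M202 had 3.91 and 4.05 in submerged plants, against 9.67 and 9.57 in non-submerged plants. Submerged M202(Sub1) kept somewhat more of it than submerged M202. The change was -5.08 ± 0.18 in M202(Sub1) and -5.64 ± 0.18 in M202. The HOX family did not move as a group: of 30 tested probe sets 12 were higher and 8 lower in M202(Sub1), and 13 were higher and 5 lower in M202. The median change was 0.07 in M202(Sub1) and 0.05 in M202. HOX12 stood opposite to Hox22, with changes of 4.86 in M202(Sub1) and 4.0 in M202.

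A pair of plasma membrane aquaporins, channels through which water and small solutes cross the cell membrane, were members. PIP1-3 (LOC4331194, chromosome 2, Os.9222.1.S1_at), also called RWC3, had levels of 6.08 and 6.48 in submerged M202(Sub1), against 11.67 and 11.66 in non-submerged M202(Sub1). In M202 it had 6.38 and 6.37 in submerged plants, against 12.37 and 12.38 in non-submerged plants. The submerged genotypes stood at nearly one level, and the difference between the non-submerged genotypes missed the threshold, with a limma adjusted p of 0.0967. The change was -5.38 ± 0.13 in M202(Sub1) and -6.0 ± 0.13 in M202.

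PIP2-4 (LOC4343119, chromosome 7, Os.8118.1.S1_at) had levels of 3.53 and 3.05 in submerged M202(Sub1), against 8.90 and 8.89 in non-submerged M202(Sub1). In M202 it had 3.53 and 4.23 in submerged plants, against 9.53 and 9.64 in non-submerged plants. The difference between the non-submerged genotypes missed the threshold, with a limma adjusted p of 0.447. The change was -5.61 ± 0.28 in M202(Sub1) and -5.70 ± 0.28 in M202. Of 12 PIP probe sets tested, 7 were lower and 2 higher in M202(Sub1), and 9 were lower and 1 higher in M202. PIP2;6 was the 1 PIP probe set higher in both genotypes, by 0.62 in M202(Sub1) and by 0.71 in M202. Among the lower ones, both PIP2;2 probe sets fell by 3 or more in each genotype, Os.6632.1.S1_at with changes of -3.49 in M202(Sub1) and -3.81 in M202. The family of PIP2-4 thus reached from a small rise to the falls of the 2 members, as the plot of families shows.

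HSP18.1 (LOC4332361, chromosome 3, Os.37773.1.S1_at) encodes a small heat shock protein, a chaperone that keeps unfolding proteins from clumping. Its level was 3.93 and 4.61 in submerged M202(Sub1), against 10.28 and 10.34 in non-submerged M202(Sub1). Submerged M202 plants had 4.72 and 4.78, against 10.36 and 10.36 in non-submerged plants. On this probe set the non-submerged arrays of both genotypes lay within 0.1 of each other. The change was -6.04 ± 0.22 in M202(Sub1) and -5.61 ± 0.22 in M202. A second probe set of the gene, Os.37773.1.S1_x_at, changed by -5.01 in M202(Sub1) and by -4.96 in M202. Its non-submerged means were 9.54 in M202(Sub1) and 9.17 in M202. Among 17 tested probe sets named HSP16 to HSP18, 10 were lower and 5 higher in M202(Sub1), and 11 were lower and 3 higher in M202. HSP17.9A rose by 4.34 in M202(Sub1) and by 3.57 in M202, so the small heat shock genes did not share a direction.

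CYP71Z6 (LOC4329725, chromosome 2, Os.23517.1.A1_at) encodes a cytochrome P450 of diterpenoid synthesis, the route to antimicrobial phytoalexins of rice. Its level was 2.23 and 2.22 in submerged M202(Sub1), against 8.27 and 8.17 in non-submerged M202(Sub1). The corresponding M202 levels were 2.23 and 2.34 in submerged plants, against 8.55 and 8.59 in non-submerged plants. Submerged plants of both genotypes were at or beside the floor, so the falls are at least 63.7-fold in M202(Sub1) and at least 78.3-fold in M202. Its close relative CYP71Z7 changed by -0.34 in M202(Sub1), which missed the threshold, and by -0.66 in M202.

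APR-like1 (LOC4343348, chromosome 7, Os.12165.1.S1_at) encodes a protein related to adenosine phosphosulfate reductase, a family anchored in membranes and carrying a thioredoxin-like domain. Its level was 7.5 and 7.45 in submerged M202(Sub1), against 12.69 and 12.65 in non-submerged M202(Sub1). In M202 it was 6.30 and 6.80 in submerged plants, against 12.30 and 12.21 in non-submerged plants. It stayed well clear of the floor throughout. The change was -5.20 ± 0.16 in M202(Sub1) and -5.71 ± 0.16 in M202. A second probe set of the gene, Os.19519.1.S1_s_at, changed by -4.81 in M202(Sub1) and by -6.08 in M202. Another probe set of the gene, Os.19519.1.S1_at, was too low in non-submerged plants to fall by 5. It changed by -1.62 in M202(Sub1) and by -0.80 in M202, and neither change was called. Of 7 tested probe sets of the family, 3 were higher and 3 lower in M202(Sub1), and 3 were higher and 2 lower in M202. APRL4 and APRL5 changed the other way from APR-like1, APRL5 by 0.97 in M202(Sub1) and by 0.93 in M202.

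**Figure D3:**
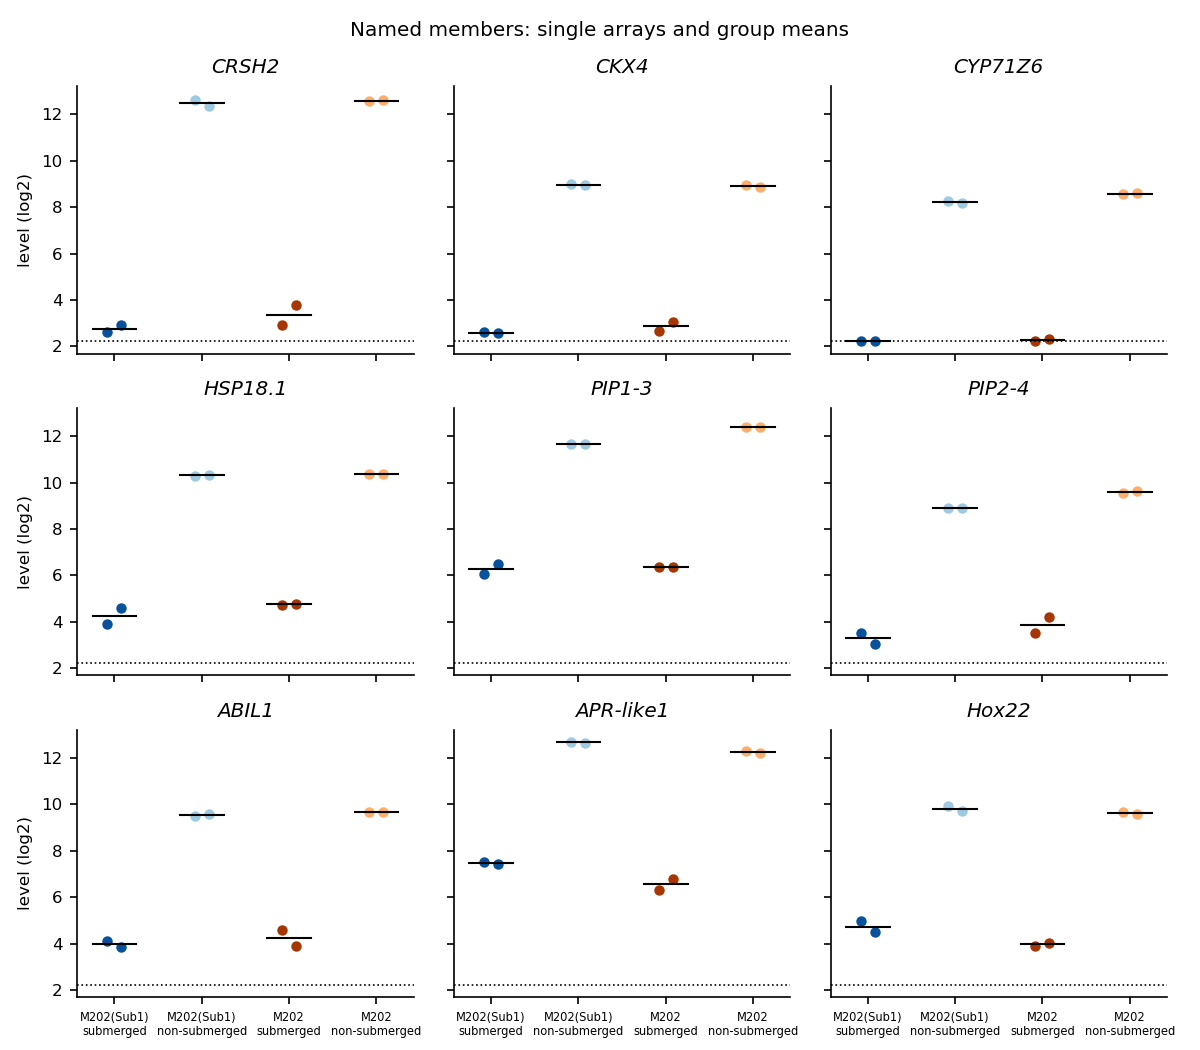
Deposited log2 levels of the 9 members that carry a gene name, with single arrays as points, group means as bars and the common floor of 2.22 as a dotted line; in each panel the groups run M202(Sub1) submerged, M202(Sub1) non-submerged, M202 submerged, M202 non-submerged. CYP71Z6 reaches the floor, while PIP1-3 and APR-like1 keep levels above 6 in all groups.

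**Figure D4:**
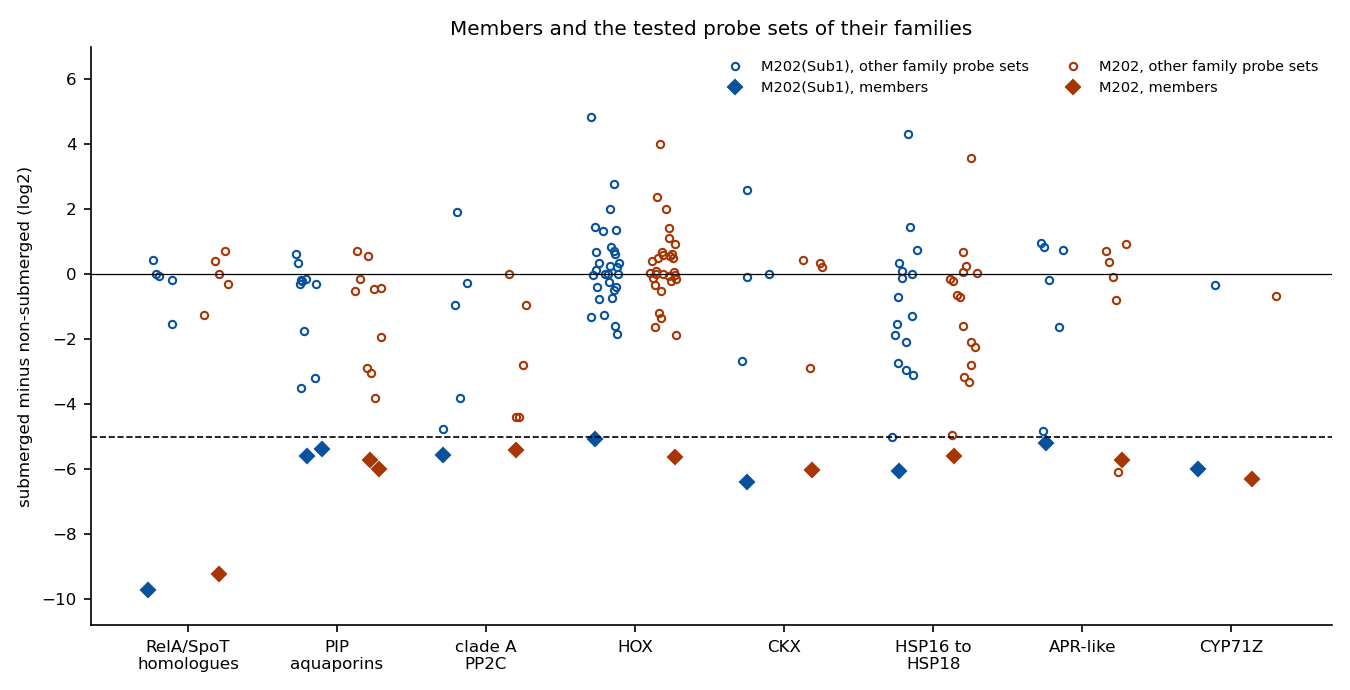
Change on submergence (submerged minus non-submerged, log2) of the tested probe sets of 8 families that hold a named member, with M202(Sub1) in blue at the left of each family and M202 in brown at its right; filled diamonds are members, open circles the other probe sets, and the dashed line marks a fall of 5. CRSH2 stands alone below -9 in its family, whereas other clade A phosphatases and PIP aquaporins also lie well below 0.

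The 18 gene lists drawn up for the study's tissue and treatment were matched by gene name, which only 9 members carry. A member was found in 4 of the lists. The aquaporins held 2, and the clade A phosphatases with ABA receptors, the transcription factor families and the cytochromes P450 held 1 each. Over all tested probe sets, 83 of 34355 were members. Of 24 aquaporin probe sets tested, 8 were higher and 12 lower in each genotype, with median changes of -0.25 in M202(Sub1) and -0.33 in M202. Among 7 probe sets of clade A phosphatases and ABA receptors, 1 was higher and 4 were lower in M202(Sub1), and 5 were lower in M202. Of 92 probe sets of transcription factor families 36 were higher and 21 lower in M202(Sub1), and 34 were higher and 20 lower in M202. Of 28 cytochromes P450 7 were higher and 6 lower in M202(Sub1), and 10 were higher and 7 lower in M202. The circadian clock list bears on the unknown hour of harvest. Of its 8 tested probe sets 3 were higher and 5 lower in M202(Sub1), and 2 were higher and 5 lower in M202. Among them CCA1, a gene of the morning, changed by -1.46 in M202(Sub1) and by -0.51 in M202. GI, a gene of the evening, changed by 0.83 in M202(Sub1) and by 0.59 in M202. The part of the clock in the members' falls was not tested.

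The largest mean fall in the deposited values, over both genotypes, belonged to OsAffx.25073.1.S1_x_at, which has no single gene here. Its level was 2.64 and 2.67 in submerged M202(Sub1), against 12.81 and 12.64 in non-submerged M202(Sub1). The M202 arrays read 2.75 and 2.67 in submerged plants, against 12.89 and 12.72 in non-submerged plants. The change was -10.07 ± 0.086 in M202(Sub1) and -10.10 ± 0.086 in M202, or at least 1075-fold and at least 1094-fold. Next came Os.27628.2.S1_a_at, with changes of -9.40 ± 0.065 in M202(Sub1) and -10.02 ± 0.065 in M202. Its submerged arrays read 2.74 and 2.74 in M202(Sub1) and 2.41 and 2.28 in M202, so these falls may be lower bounds. A second probe set of the same cluster, Os.27628.1.S1_at, was also a member, with smaller changes of -5.35 and -5.51.

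Os.8112.1.S1_at (LOC4342381, chromosome 7) had one of the highest starting points. Its level was 5.07 and 4.0 in submerged M202(Sub1), against 14.08 and 13.88 in non-submerged M202(Sub1). For M202 the levels were 4.84 and 3.82 in submerged plants, against 14.19 and 14.11 in non-submerged plants. Its submerged arrays differed by about 1 within each genotype, which the standard error of 0.47 carries. The changes were -9.45 in M202(Sub1) and -9.82 in M202.

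Os.15829.1.S1_at (LOC4328603, chromosome 2) changed by -9.89 ± 0.10 in M202(Sub1) and by -9.33 ± 0.10 in M202. The same depth was reached by Os.14921.1.S1_at (LOC4334321, chromosome 3), at -9.81 ± 0.36 in M202(Sub1) and -9.28 ± 0.36 in M202. Os.17916.1.S1_at, without a single gene, changed by -9.54 ± 0.22 in M202(Sub1) and by -9.47 ± 0.22 in M202. With CRSH2 these make up the 7 members that fell by 9 or more in both genotypes, and all 7 had non-submerged means above 12.

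Os.54146.1.S1_at (LOC4330867, chromosome 2) gave the plainest pattern. It stood at 2.22 on all 4 submerged arrays, against 10.67 and 10.52 in non-submerged M202(Sub1) and 10.67 and 10.53 in non-submerged M202. Since the submerged arrays are all at the floor, the falls are at least 332-fold in M202(Sub1) and at least 334-fold in M202. Os.27580.1.S1_at (LOC4343582, chromosome 7) changed by -7.21 ± 0.17 in M202(Sub1) and by -8.03 ± 0.17 in M202.

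Os.6898.1.S1_at (LOC4343987, chromosome 7), also among the 10 largest mean falls, was the member that differed most upward between the submerged genotypes. Its level was 4.72 and 5.62 in submerged M202(Sub1), against 12.15 and 12.16 in non-submerged M202(Sub1). M202 had 3.37 and 4.10 in submerged plants, against 12.27 and 12.19 in non-submerged plants. The submerged mean was 1.43 higher in M202(Sub1) than in M202. The opposite end was held by Os.11561.2.S1_a_at (LOC4332782, chromosome 3), with a difference of -1.49 between the submerged means, M202(Sub1) minus M202. That probe set had 3.96 and 4.15 in submerged M202(Sub1), against 11.82 and 11.65 in non-submerged M202(Sub1), while M202 had 5.52 and 5.58 in submerged plants, against 11.91 and 11.95 in non-submerged plants.

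Between these ends the submerged genotypes were close, which the limit of 1.5 fixes in part. The difference of the submerged means, M202(Sub1) minus M202, was within 0.5 for 57 members, with a median of 0.0. The larger fall was in M202(Sub1) for 41 members and in M202 for 42. The 2 falls differed by less than 0.5 for 50 members and by 1 or more for 7, of which 3 fell further in M202(Sub1) and 4 in M202. No test was made of these differences, since the rule limited them.

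At the median member, the arrays of a group lay closer together in non-submerged than in submerged plants. The median gap between the 2 arrays over the members was 0.19 in submerged M202(Sub1) and 0.13 in non-submerged M202(Sub1), and 0.21 in submerged M202 and 0.07 in non-submerged M202. Gaps above 1 occurred for 5 members in submerged M202(Sub1), for 2 in submerged M202 and for 0 in either non-submerged group. The widest was that of Os.51220.1.S1_at (LOC9268397, chromosome 9), which was singled out after its values were seen. Its level was 4.54 and 8.07 in submerged M202(Sub1), against 13.47 and 13.61 in non-submerged M202(Sub1). Submerged M202 plants had 7.30 and 6.5, against 13.52 and 13.45 in non-submerged plants. The changes of -7.23 in M202(Sub1) and -6.59 in M202 carry a standard error of 1.15. The other 3 probe sets of that gene missed the threshold of 5 and were tight between arrays: Os.48879.1.S1_at changed by -4.62 in M202(Sub1) and -4.77 in M202, Os.48879.1.S1_x_at by -4.58 and -4.82, and Os.51220.1.S1_x_at by -4.76 and -4.67. The fall of this gene is thus common to all of its probe sets, and the one that met the threshold is the one with the widest gap between arrays.

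Other probe sets of the members' genes gave a further reading, though not always a separate one. There were 25, over 15 genes, and the rule was applied to them too and left them out. Of these 13 were too low in non-submerged plants to fall by 5. The 12 that were high enough came from fewer genes than the 15, with more than 1 probe set for some. Some differ from a member only in the ending of the name, such as Os.52698.1.S1_at beside Os.52698.1.S1_x_at, and may share its probes. Of the 12 that were high enough, 11 fell by 3 or more in both genotypes, 1 of which, Os.28110.1.S1_x_at, met the fall of 5 and was dropped by the limit on the submerged means. Among these were Os.52698.1.S1_at of LOC4344370, which changed by -4.95 in M202(Sub1) and -4.80 in M202, and Os.10672.1.S1_at of LOC4331944, at -3.39 and -3.35. The exception was LOC4340892 on chromosome 6. Its member Os.12713.1.S2_a_at had 4.90 and 4.94 in submerged M202(Sub1), against 10.73 and 10.58 in non-submerged M202(Sub1), and 4.90 and 4.30 in submerged M202, against 11.65 and 11.65 in non-submerged M202. The other probe set, Os.12713.1.S1_at, had means of 15.79 and 16.00 in submerged and non-submerged M202(Sub1), and of 15.89 and 16.02 in submerged and non-submerged M202. The changes of the 2 probe sets were -5.74 and -0.21 in M202(Sub1) and -7.05 and -0.12 in M202. The second lies close to the highest deposited value of 16.93, and whether a fall could be seen there was not tested. Members of the kinds that can share probes with related transcripts, with names ending in _x_at or _s_at, were 12 and 6 of the 83, or 14.5% and 7.23%, beside 12.5% and 4.94% of all probe sets.

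The member genes were placed in the gene order of a RefSeq rice assembly, of which only names, chromosomes and order were used. Chromosome 3 held 9 of the 50 genes, or 18.0%, beside 13.7% of the genes on the array. Chromosomes 1 and 7 held 8 each, or 16.0%, beside 14.8% and 7.67% of the genes on the array. Chromosomes 10 and 12 held 0, beside 5.02% and 5.07%. Some members were direct neighbours. LOC4343986 and LOC4343987 lie side by side on chromosome 7, and the member of LOC4343986, Os.27650.1.S1_at, changed by -6.96 in M202(Sub1) and by -7.43 in M202. LOC4347284 and LOC4347285 lie side by side on chromosome 9. Their members Os.52987.1.S1_at and Os.52444.1.S1_at changed by -5.92 and -5.07 in M202(Sub1) and by -5.32 and -5.57 in M202. On chromosome 1, LOC4326659 and LOC4326694 are separated by 3 genes.

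Genes next to members in this order had 68 tested probe sets that were not members. One of these, Os.12703.1.S1_at of LOC4331945, met the fall of 5 and was dropped by the limit on the submerged means, which leaves 67. Of the 67, 31, or 46.3%, were called lower in both genotypes by limma. Among all 19464 tested probe sets paired with 1 gene, members included, 22.5% were. A fall of 2 or more in both genotypes was met by 8 of the 67, or 11.9%, beside 3.99%. The median change of the 67 was -0.27 in M202(Sub1) and -0.38 in M202, beside 0.04 and 0.0 over the probe sets paired with 1 gene. HSP18.1 lies between HSP17.4, which changed by -3.12 in M202(Sub1) and -3.33 in M202, and HSP17.7, at -2.10 and -2.23. LOC4347708, next to the member gene LOC4347709, changed by -4.27 in M202(Sub1) and by -4.13 in M202. These examples were chosen after their values were seen. Likeness of sequence between neighbours, through which 1 transcript can be read by 2 probe sets, was not tested.

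The rule set no limit on the genotype difference before submergence, though it used both non-submerged means, each through its fall, so the test below is not fully independent of it. The comparison asks whether the genotypes already differed in these transcripts when grown in air. The members were called at 3.61%, or 3 of 83, where 1.91% of all tested probe sets were called (limma, Benjamini-Hochberg adjusted p below 0.05 over 34355 probe sets). Of the 3, 2 were lower in M202(Sub1), as were 1.23% of all tested probe sets, and 1 was higher, as were 0.684%. Among the 14408 tested probe sets whose non-submerged mean was at least 5 above the floor, the share was 2.07%. The median difference, M202(Sub1) minus M202, was -0.05 over the members and 0.0 over all tested probe sets. Of the members, 52 were lower and 31 higher in M202(Sub1), and 75 of the 83 differed by less than 0.5. How many of all tested probe sets lay on each side or within 0.5 was not counted. At an unadjusted p below 0.05 there were 17, or 20.5% of the members, beside 11.7% of all tested probe sets and 16.1% of those at least 5 above the floor. The median size of the difference, whatever its sign, was 0.17 over the members and 0.08 over those 14408. With 1 non-submerged array left out, 2 or 3 members were called, or 2.41% to 3.61%, and 3.22% to 5.15% of all tested probe sets, so the order of the main shares did not hold: without replicate 1 of non-submerged M202(Sub1), for example, 3.61% of the members were called and 5.15% of all.

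The largest called difference was that of Os.12922.1.S1_at (LOC4347709, chromosome 9). Non-submerged levels were 7.87 and 7.97 in M202(Sub1), against 8.87 and 8.90 in M202, a difference of -0.97 ± 0.065 with a limma adjusted p of 0.0046. The groups stood about 1 apart with little spread. OsAffx.5446.1.S1_s_at ran the other way, at 9.24 and 9.15 in M202(Sub1) grown in air, against 8.41 and 8.43 in M202 grown in air. Its difference was 0.77 ± 0.075 with a limma adjusted p of 0.0147. OsAffx.22176.1.S1_x_at stood at 7.92 and 7.88 in M202(Sub1) grown in air, against 8.46 and 8.49 in M202 grown in air, a difference of -0.58 ± 0.062 with a limma adjusted p of 0.0195. In all 3 the arrays of the genotypes did not overlap. This adds no support to the calls, since how many of all tested probe sets separate this way was not counted. Of the 3, only Os.12922.1.S1_at carries a gene in the annotation used here.

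These calls depended on the fit. In a limma fit of the 4 non-submerged arrays alone none of the 3 passed, with adjusted p of 0.0794 for Os.12922.1.S1_at, 0.0841 for OsAffx.5446.1.S1_s_at and 0.0681 for OsAffx.22176.1.S1_x_at, and PIP1-3 was the 1 member called, with an adjusted p of 0.0201, or 1.2% of the members beside 0.469% of all tested probe sets. Over all alternatives the limma adjusted p ran from 0.00164 to 0.0794 for Os.12922.1.S1_at, from 0.00863 to 0.0841 for OsAffx.5446.1.S1_s_at and from 0.00561 to 0.0786 for OsAffx.22176.1.S1_x_at. Without replicate 2 of non-submerged M202, limma gave OsAffx.5446.1.S1_s_at an adjusted p of 0.0513 and OsAffx.22176.1.S1_x_at one of 0.0543. Without either array of submerged M202(Sub1), OsAffx.22176.1.S1_x_at had a limma adjusted p of 0.0589. Without either array of submerged M202, 5 members were called, 6.02% of them beside 1.3% of all tested probe sets, with Os.12713.1.S2_a_at and OsAffx.28714.1.S1_x_at in addition. In the main comparison PIP1-3 differed by -0.71 ± 0.13 between non-submerged genotypes and had a limma adjusted p of 0.0967, and Os.12713.1.S2_a_at differed by -0.99 ± 0.20 with one of 0.124.

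**Figure D5:**
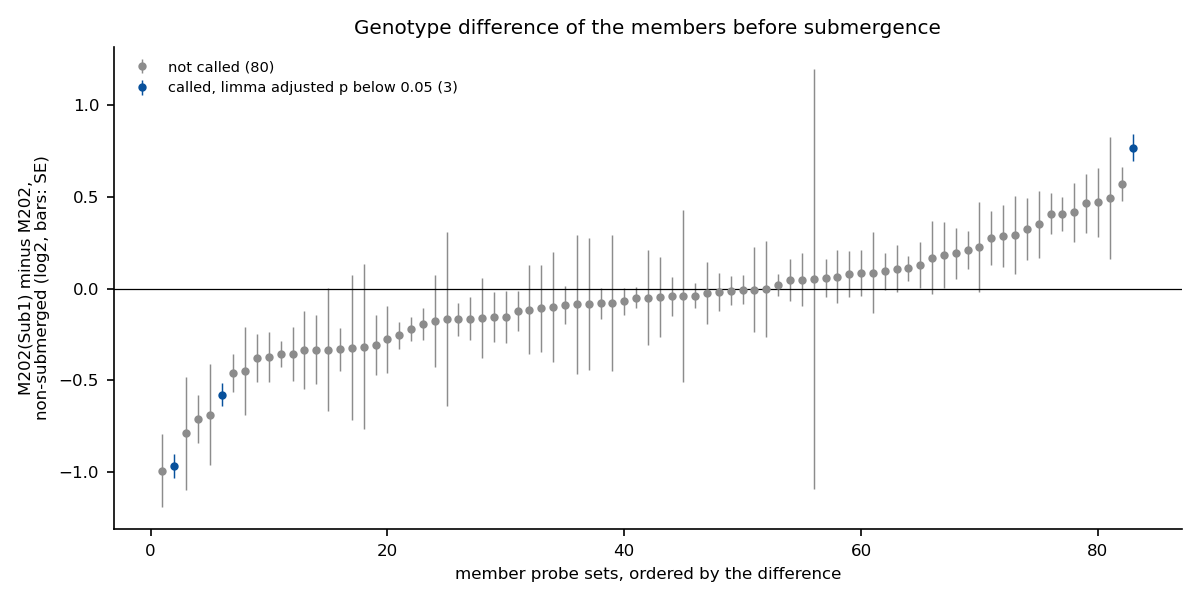
Difference between non-submerged genotypes, M202(Sub1) minus M202 (log2), for the 83 members in order of that difference; bars are standard errors of the limma fit and blue points the 3 members called at an adjusted p below 0.05. Of the 83, 75 lie within 0.5 of equality, and the widest bar is that of Os.51220.1.S1_at with its standard error of 1.15. The median size of the difference was 0.17 over the members and 0.08 over tested probe sets with a non-submerged mean at least 5 above the floor.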

How the data were processed

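Messenger RNA was measured on 8 Affymetrix rice arrays in 4 groups of 2, grouped by the sample labels. The deposited values, made by the authors, are log2 levels of each probe set on each array. GCRMA and MAS5 appear in the submitters' processing notes, with neither role nor version, and the sources used here do not say whether the arrays were normalized together. Arrays have no read depth, and 2 per group limits the precision.

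The 123 control probe sets were set aside. A probe set was tested when its mean over the 8 arrays reached 2.23 on the log2 scale, the 40th percentile, which left 34355 and all 83 members. limma 3.58.1 in R 4.3.3 fitted 1 coefficient per group with an intensity trend, with Benjamini-Hochberg adjustment. The fit had 4 residual degrees of freedom and was tested on simulated data. Standard errors come from this fit. The series' text calls the replicates biological but does not say what set them apart, so p-values measure the spread between these samples.

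Genes were named through the platform annotation and a RefSeq gene table of assembly ASM3414082v1, whose symbols are often LOC numbers, so names were taken from its synonyms. All 50 member genes matched. The members and gene lists were chosen with earlier results of these data known, and the family lists after the members were seen. The text names every member with a gene name, the 10 largest mean falls, the 3 probe sets on each side of the threshold, members called for genotype, and the extremes of the submerged difference. The 2 probe sets left out by name entered no list. Alternatives covered the filter, the trend, the normalization (centring on 36 poly(A) spike-in probe sets, or quantiles), a floor of 4, the fall required, a replicate block and leaving out each array.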

Additional observations from a re-analysis of the deposited data

Results flagged for a closer look

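In 5 probe sets of the families above every array went one way on submergence in M202(Sub1) and the other way in M202. None is a member, and the difference between the genotypes was not tested in any of them. The widest was PIP2;5 (Os.31191.1.S1_at), a plasma membrane aquaporin whose gene lies next to PIP2-4. It had 7.36 and 7.27 in submerged M202(Sub1), against 6.88 and 7.03 in non-submerged M202(Sub1), and 4.33 and 4.10 in submerged M202, against 7.11 and 7.08 in non-submerged M202. Its changes were 0.35 in M202(Sub1) and -2.88 in M202, 3.24 apart, while PIP2-4 fell deeply in both. The small heat shock gene HSP18.0 (Os.519.1.S1_at) changed by 0.74 in M202(Sub1) and by -0.22 in M202, 0.96 apart. For the other 3 the change in M202(Sub1) minus that in M202 was -0.59 for CRSH1, -0.72 for the PIP2;1 probe set Os.11330.1.S2_at and -0.77 for Hox13, whose change in M202 was 0.03.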

How the results depend on the processing

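The number of members followed the rule and the floor. A required fall of 4 gave 204 members and one of 6 gave 29, as these settings widen or narrow the rule, while setting every value below 4 to 4 gave 51, of which 50 were among the 83. Leaving out each array in turn gave 79 to 87, and spike-in centring, quantile normalization and no limit on the submerged means gave counts within 1.5 times of 83. The median change was -6.27 in M202(Sub1) and -6.06 in M202 with spike-in centring, and -5.33 and -5.43 with the floor of 4, which by construction shortens falls. Leaving out arrays gave -5.95 to -5.86 in M202(Sub1) and -6.01 to -5.87 in M202. The median difference between submerged genotypes was -0.25 with spike-in centring, and -0.03 to 0.0 without single arrays. Spike-in centring moved the level of submerged against non-submerged arrays by 0.40 in M202(Sub1) and by 0.19 in M202, which is small beside falls of 5. The 3 members called for genotype in non-submerged plants became 6 with a filter at the 60th percentile, which tests fewer probe sets and called 2.79% of all, and 1 with only the 4 non-submerged arrays, which was not among the 3 and where 0.469% of all were called. Leaving out arrays gave 2 to 5. With the replicate number as a block 1 was called, and 1.34% of all. Deviations of same-numbered arrays correlated at 0.008 to 0.178, so the numbers were not taken to pair the plants. The direction of each of the 3 differences held in all 16 alternatives, but only the changes of normalization could have reversed it. Leaving out a non-submerged array could not, since the genotypes' arrays did not overlap, and the other settings leave these differences unchanged. The causes of these moves, beyond those named, were not tested. Promoter motifs were not run, since no promoter sequence was used here. Signal over background limits the falls that end near the floor, as no detection calls were used.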

Other observations

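The 6 probe sets that fell by 5 or more in both genotypes but ended at submerged levels 1.5 or more apart also carry a gene each. In 5 of them the submerged mean was lower in M202(Sub1) than in M202. Os.12703.1.S1_at (LOC4331945), whose gene lies next to the member gene LOC4331944, had means of 2.93 and 12.86 in submerged and non-submerged M202(Sub1), and of 5.89 and 12.71 in submerged and non-submerged M202. OsAffx.24280.2.S1_at (LOC4342551) was 3.49 lower in submerged M202(Sub1) than in submerged M202, and 1.33 lower in the non-submerged plants. The one that ran the other way was Os.28110.1.S1_x_at of LOC4337229, whose submerged mean was 2.16 higher in M202(Sub1). A different probe set of that gene, Os.28110.4.S1_x_at, was a member with submerged means of 2.48 in M202(Sub1) and 2.28 in M202. These differences were chosen by the limit of 1.5 and have no test.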
